A study of Mus musculus with 23 samples.

Results

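Doxorubicin given 6 h before harvest was compared with no treatment in proximal small intestine of mice fed ad libitum, within each of 2 genotypes. The 4 libraries of the comparison, of 23 in the series, were chosen by their labels: ad libitum doxorubicin 6 h in a wild-type mouse and in a Ddit4 knockout (Ddit4-/-) mouse, and ad libitum untreated 0 h in a wild-type and in a knockout mouse. Doxorubicin was injected into the peritoneum at 20 mg/kg. RNA came from whole tissue, all mice were labelled male, and strain and age are not given in the sources used here. Each genotype and condition was 1 mouse library, so the wild-type and knockout mice stood in for replicates. The untreated ad libitum mice were labelled 0 h, so the drug, the injection and the hours that passed cannot be told apart in these 4 libraries. The other 19 libraries came from fasted mice, from mice fasted for 24 h and then refed (called prefasted here), and from ad libitum mice at other hours of doxorubicin.

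Doxorubicin intercalates into DNA and traps topoisomerase II on broken strands, and the damage stabilises the transcription factor p53. In the small intestine, stem cells and rapidly dividing progenitors lie in crypts, and their descendants move up the villus as absorptive enterocytes that take up amino acids, organic acids, fat and sterols. Crypt cells die or stop dividing within hours of DNA damage, while villus cells no longer divide. The intestine also runs a circadian clock, in which CLOCK and ARNTL (BMAL1) drive the Per, Cry and Rev-erb repressors and the output factors Dbp, Tef and Hlf, and food intake sets its phase. Ddit4 encodes an inhibitor of the growth kinase complex mTORC1 that stress and glucocorticoids induce.

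The libraries of the comparison held 14.53 to 22.46 reads in genes, in units of 1e+06, and 13695 to 14181 genes with a read. Ddit4 had 180.4 and 296 normalized reads in the untreated and treated wild-type libraries and 0 in both knockout libraries, as labelled. Reads of the Y chromosome (Uty, Kdm5d, Eif2s3y and Ddx3y summed) numbered 1406, 1656 and 1725 in 3 of the libraries and 0 in the untreated knockout library, which goes against its label of a male mouse. In the whole series 3 untreated knockout libraries held 0, 5 and 0 such reads (ad libitum 0 h, fasted 0 h and prefasted 2 h). These 3 are said below to lack Y reads. The 26 enterocyte and brush border genes summed to 1287340 and 1366570 normalized reads untreated and 1779800 and 2090250 at 6 h, so the labelled tissue was present in each. Fat tissue markers differed: Adipoq, an adipocyte hormone, had 10.9 and 0 normalized reads untreated and 79.7 and 72.5 at 6 h. All 7 of 7 tested fat markers were higher in both treated libraries, against 25.3% of all genes tested. Their summed level was 2531 and 2907 untreated and 4306 and 4192 at 6 h, and the markers Lep and Adrb3 were at 0 in both untreated libraries. Pancreatic acinar markers summed to 1980 and 308 untreated and 922 and 203 at 6 h. In whole tissue, fewer cells of a type and less RNA per cell cannot be told apart. Paired values below give the wild-type library first and the knockout library next.

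Of 11939 genes tested, 160 passed an adjusted p of 0.05 (limma, Benjamini-Hochberg over all genes), which is 1.34% of them. Of these, 108 rose (0.905%) and 52 fell (0.436%). Doxorubicin libraries were both above both untreated libraries for 3025 genes (25.3%) and both below for 2993 (25.1%), so absence of overlap alone was common. These are the shares to set beside each count below of list members higher or lower in both treated libraries. The median log2 change was 1.38 among genes that rose and -1.71 among genes that fell, against 0 over all genes, and 87 rose and 45 fell by 2-fold or more. All 160 moved the same way in both genotypes, and in all 160 the treated and untreated values did not overlap. They were called on the mean change of these same pairs, so both traits follow largely from the selection and add no support. Of them, 85 moved more in the knockout pair, as the plot of one pair against the other shows. Libraries of the same treatment were the closest to each other: Pearson r of log2 values across genes was 0.964 for the untreated pair and 0.964 for the treated pair, and 0.934 to 0.950 across treatment. Genes are not independent replicates, and no test was made on these correlations. The untreated knockout library bears on most of these calls: without it 6 genes passed (B4galt6, Dgat2, Per2, Slc13a2, Slc5a12 and Tef), and without all 3 libraries of the series that lack Y reads 5 passed (Per2, Per3, Slc13a2, Slc5a12 and Tef). Without the untreated wild-type, the treated wild-type or the treated knockout library the count was 40, 28 and 22.

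**Figure D1:**
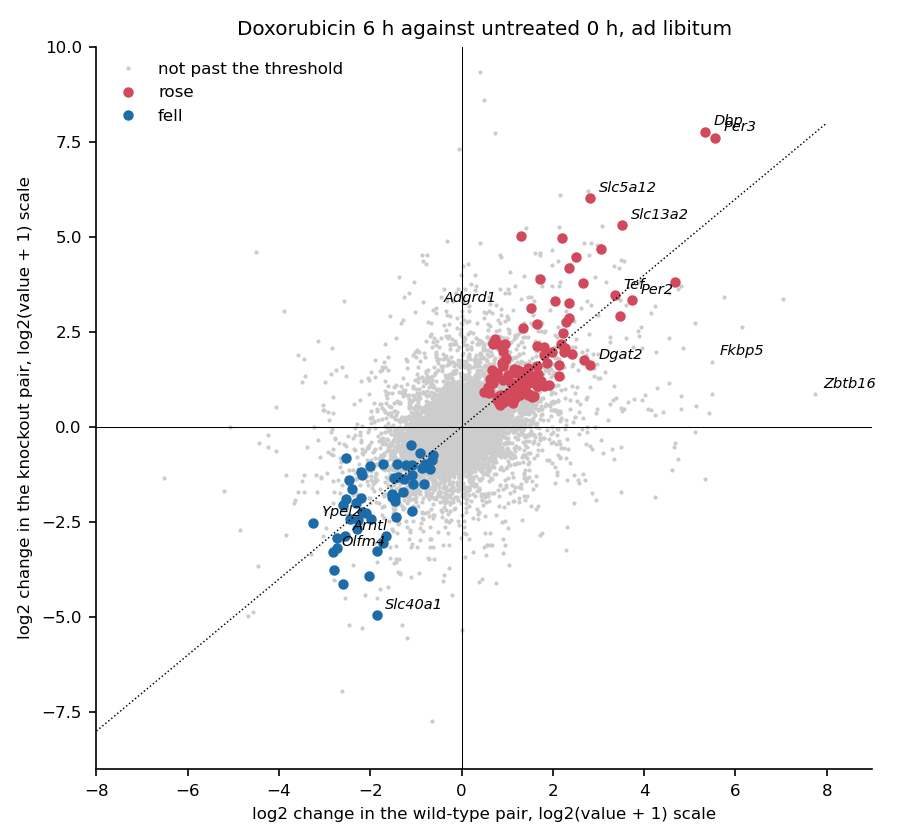
Log2 change from untreated 0 h to doxorubicin 6 h in the wild-type pair (x axis) and in the knockout pair (y axis), on the log2(value + 1) scale, 1 point per gene tested and a dotted line of equal change. The 108 genes that rose and the 52 that fell (coloured) all lie in the quadrants of 1 direction. They were called on the mean change of both pairs, which favours such agreement. Fkbp5 and Zbtb16 lie along the wild-type axis and Adgrd1 along the knockout axis.

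Clock genes of the Per and PAR bZIP group rose. Of 13 listed genes 12 were tested, 9 rose, none fell, and all 12 were higher in both treated libraries. Their median log2 change was 2.39 (2.32 in the wild-type pair and 2.48 in the knockout pair), against 0 over all genes. Per2, a repressor at the core of the clock (chromosome 1, 91415982 to 91459324, mm10), had 36.7 and 44.03 normalized reads untreated and 499.6 and 453 at 6 h. The treated values lay over 10 times above the untreated ones in both genotypes, with no overlap (log2 3.53 ± 0.34, adjusted p = 2.0e-04; n = 2 per condition for every log2 change, with its SE). Tef, a transcription factor that binds D-box sites (chromosome 15, 81802421 to 81826863), had 282 and 164 normalized reads untreated and 2893 and 1834 at 6 h (log2 3.42 ± 0.39, adjusted p = 6.3e-04). The wild-type library was the higher one in both conditions. Per3, another Per repressor (chromosome 4, 151003652 to 151044665), was barely read in the untreated mice at 0 h, with 5.95 and 0 normalized reads untreated and 327 and 195 at 6 h (log2 6.59 ± 0.84, adjusted p = 0.0017). Dbp, a D-box factor with a wide daily swing in many tissues (chromosome 7, 45705088 to 45710203), had 51.6 and 5.64 normalized reads untreated and 2129 and 1456 at 6 h (log2 6.56 ± 1.09, adjusted p = 0.01).

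The other risen members included Nr1d2, which encodes the repressor REV-ERB beta, at 263 and 170.5 normalized reads untreated and 1356 and 1241 at 6 h (log2 2.61 ± 0.51, adjusted p = 0.022). Cry2, a cryptochrome that represses CLOCK and ARNTL, had 77.3 and 97.1 normalized reads untreated and 284 and 317 at 6 h (log2 1.78 ± 0.36, adjusted p = 0.024). Both genotypes moved alike in these genes. Hlf, the remaining D-box factor, had 178 and 85.8 normalized reads untreated and 863 and 367 at 6 h (log2 2.18 ± 0.46, adjusted p = 0.027), and Usp2, a clock-controlled deubiquitinase, had 666 and 448 normalized reads untreated and 2317 and 1923 at 6 h (log2 1.95 ± 0.42, adjusted p = 0.032). Per1, which glucocorticoids also induce directly, had 206 and 216 normalized reads untreated and 903 and 554 at 6 h (log2 1.74 ± 0.38, adjusted p = 0.032). The members that did not pass were Nr1d1, at 1838 and 656 normalized reads untreated and 2563 and 2355 at 6 h (adjusted p = 0.23), Ciart (adjusted p = 0.15) and Bhlhe40 (adjusted p = 0.32). Nr1d1 was already high in the untreated wild-type library, and its untreated values spread more than those of Per2. With the 3 libraries that lack Y reads left out, the log2 changes of Per2, Tef and Per3 were 3.62, 3.07 and 5.30, each past the threshold, while Dbp had 5.18 with an adjusted p of 0.095. With any 1 of the 4 libraries left out, 2 to 4 of the 12 members passed, and each median stayed positive.

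Arntl and Nfil3, which peak in the opposite phase, fell. Of 6 tested genes of this phase these 2 fell and none rose, 4 were lower in both treated libraries and 2 had a positive change, and the median was -0.91. Arntl, the activator partner of CLOCK (chromosome 7, 113207465 to 113314126), had 715 and 846 normalized reads untreated and 120.1 and 115 at 6 h and did not overlap between conditions (log2 -2.72 ± 0.44, adjusted p = 0.0093). Nfil3, a repressor that competes with Dbp, Tef and Hlf for D-box sites, had 279.6 and 869 normalized reads untreated and 67.4 and 56.2 at 6 h (log2 -2.98 ± 0.56, adjusted p = 0.016). The knockout library stood about 3 times above the wild-type one before treatment and both ended low. Npas2, a paralog of Clock, had 1106 and 1174 normalized reads untreated and 478 and 637 at 6 h (adjusted p = 0.085).

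**Figure D2:**
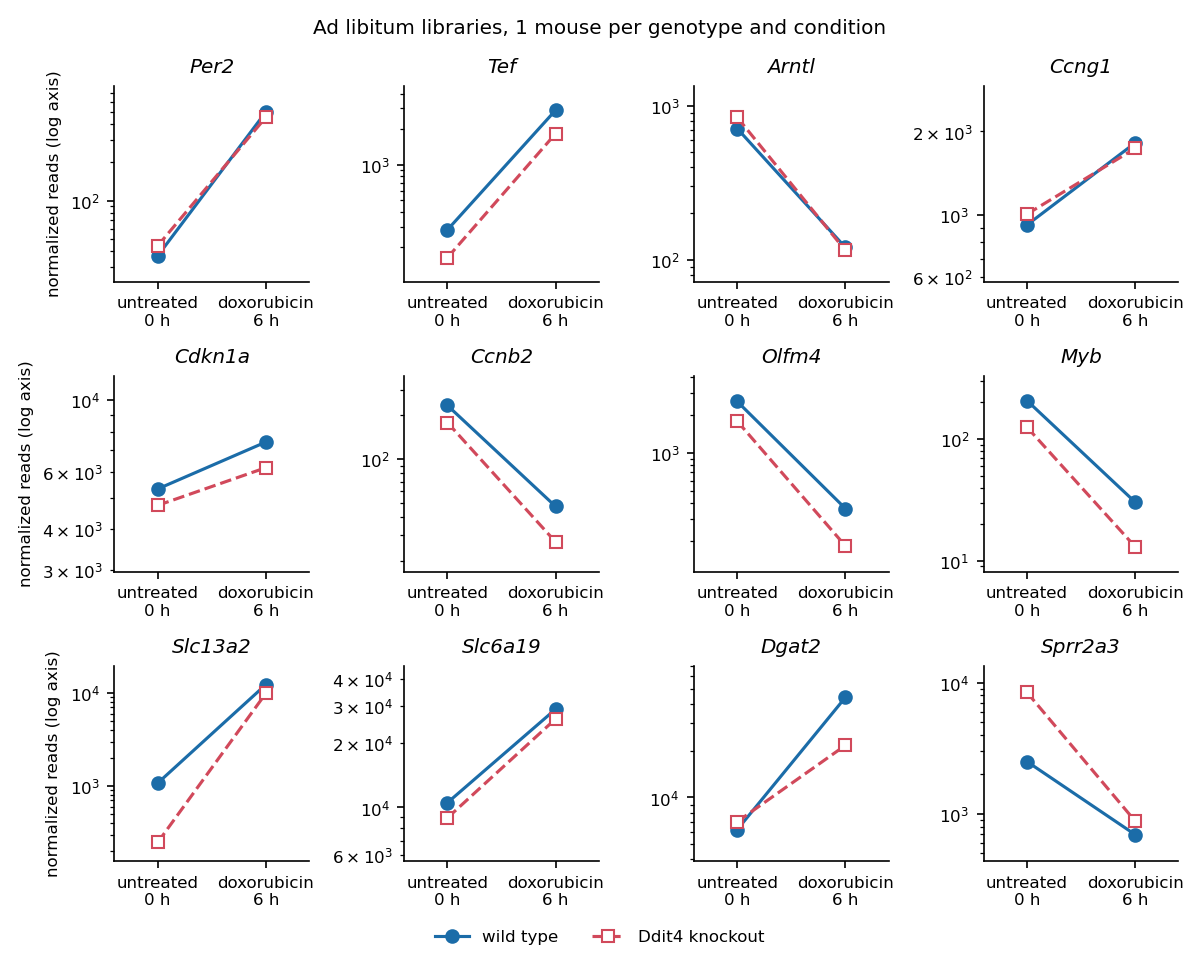
Normalized reads (log axis) of 12 genes in the 4 libraries, untreated at 0 h and doxorubicin at 6 h, wild type as filled circles and Ddit4 knockout as open squares joined by dashed lines. Per2 and Tef rise and Arntl, Ccnb2, Olfm4 and Myb drop in parallel in both genotypes, Cdkn1a moves from 5322 and 4737 to 7425 and 6189, and Sprr2a3 starts higher in the knockout.

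Promoters are shown for Tef and Per3, the clock genes with the smallest p among those with a RefSeq entry, and for Per1, the gene that rose in the glucocorticoid list described further on, so that letters matching the sites of CLOCK, ARNTL and the D-box factors can be seen. Each runs from 250 bases before the transcription start to 50 after it, on build GRCm38.p6. They are RefSeq entries of that build. Capitals mark the E-box CACGTG in Tef and Per1 and the D-box TTATGTAA in Per3. Both strands were searched. Tef has 2 listed starts, chr15:81802423-81802722 and chr15:81811164-81811463 (plus strand). Per3 lies at chr4:151044616-151044915 (minus strand) and Per1 at chr11:69098699-69098998 (plus strand). A further listed Per1 start, at chr11:69099902-69100201, holds neither motif and is not printed.
Tef start 1: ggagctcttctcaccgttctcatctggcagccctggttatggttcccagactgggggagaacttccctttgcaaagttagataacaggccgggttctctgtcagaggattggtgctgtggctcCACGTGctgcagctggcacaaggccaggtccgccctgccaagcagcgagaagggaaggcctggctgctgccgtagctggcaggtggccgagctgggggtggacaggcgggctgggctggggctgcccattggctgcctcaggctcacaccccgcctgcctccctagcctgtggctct
Tef start 2: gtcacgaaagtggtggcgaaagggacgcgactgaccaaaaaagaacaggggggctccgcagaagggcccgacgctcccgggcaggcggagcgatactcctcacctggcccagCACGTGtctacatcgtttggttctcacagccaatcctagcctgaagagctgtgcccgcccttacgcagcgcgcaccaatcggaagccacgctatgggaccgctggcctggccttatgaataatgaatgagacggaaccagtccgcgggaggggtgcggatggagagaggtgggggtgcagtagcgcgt
Per3: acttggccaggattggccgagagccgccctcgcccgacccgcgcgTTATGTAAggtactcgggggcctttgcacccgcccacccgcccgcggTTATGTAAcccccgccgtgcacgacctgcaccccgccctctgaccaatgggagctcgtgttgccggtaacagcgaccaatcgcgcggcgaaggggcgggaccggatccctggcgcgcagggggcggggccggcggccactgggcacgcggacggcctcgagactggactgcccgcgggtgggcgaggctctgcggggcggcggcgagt
Per1 start 1: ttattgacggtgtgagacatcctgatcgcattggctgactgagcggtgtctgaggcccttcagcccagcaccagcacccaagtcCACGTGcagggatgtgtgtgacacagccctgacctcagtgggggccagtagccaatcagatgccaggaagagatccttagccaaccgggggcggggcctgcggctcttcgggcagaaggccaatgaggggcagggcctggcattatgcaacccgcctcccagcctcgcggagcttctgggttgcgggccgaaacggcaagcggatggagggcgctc
Each Tef sequence holds 1 E-box, at -127 and -138 from the start, the printed Per1 sequence holds 1 at -166, and Per3 holds 2 D-boxes, at -205 and -158. An E-box lay in the promoters of 3 of 10 clock genes with an entry (30%), against 11.6% of 9579 tested genes with one and 7.15% of 32851 promoters in the table. The D-box lay in 1 of the 10, against 0.637% of tested genes. A match is a description of letters in this window only.

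Among p53 targets of arrest and feedback, Ccng1 alone rose of 25 tested. Ccng1, cyclin G1, a direct p53 target (chromosome 11, 40748552 to 40755311), had 924 and 1010.4 normalized reads untreated and 1820.0 and 1739 at 6 h. The change was log2 0.98 in the wild-type pair and 0.78 in the knockout pair, and the groups did not overlap (log2 0.88 ± 0.15, adjusted p = 0.011). Several members moved up without passing. Phlda3, an inhibitor of AKT that p53 induces, had 0.991 and 16.9 normalized reads untreated and 140.3 and 111 at 6 h (log2 4.39 ± 1.07, adjusted p = 0.053), and Plk2, a stress-induced kinase, had 56.5 and 41.8 normalized reads untreated and 171 and 119 at 6 h (log2 1.53 ± 0.38, adjusted p = 0.059). The cell cycle inhibitor Cdkn1a (p21) was abundant without drug, at 5322 and 4737 normalized reads untreated and 7425 and 6189 at 6 h (log2 0.43 ± 0.19, adjusted p = 0.29). Mdm2, the ubiquitin ligase that degrades p53, had 1058 and 920.0 normalized reads untreated and 1402 and 1258 at 6 h (adjusted p = 0.39). Both treated values of Cdkn1a and Mdm2 exceeded both untreated ones, by less than 2-fold. The list had 15 members higher in both treated libraries and 3 lower, and a median of 0.50. Mdm4, a p53 inhibitor that was named after its values were seen, had 335 and 225 normalized reads untreated and 712 and 501 at 6 h (log2 1.12 ± 0.23, adjusted p = 0.024).

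Death targets of p53 did not move as a group. None of 12 p53 death targets passed in either direction, 4 were higher and 5 lower in both treated libraries, and the median was 0.07. Bbc3 (PUMA), which triggers apoptosis, had 100.1 and 231 normalized reads untreated and 81.96 and 80.6 at 6 h (log2 -0.90 ± 0.62, adjusted p = 0.55). Bax, which permeabilises mitochondria, had 339 and 395 normalized reads untreated and 704 and 489 at 6 h (adjusted p = 0.3). Pmaip1 (NOXA), named after its values were seen, had 1178 and 1262 normalized reads untreated and 4686 and 1267 at 6 h, so that only the treated wild-type library was high. Other cell death regulators had a median of 0.14, with none of 20 past the threshold. In both treated libraries 10 of these were higher and 3 lower (25.3% and 25.1% of all genes tested). Of 25 tested DNA repair and checkpoint genes none passed, 14 were lower in both treated libraries, and the median was -0.46. The Ccng1 promoter is shown because this was the p53 target that passed (chr11:40755237-40755536, minus strand, GRCm38.p6), with CCAAT boxes, or ATTGG on the other strand, in capitals.
Ccng1: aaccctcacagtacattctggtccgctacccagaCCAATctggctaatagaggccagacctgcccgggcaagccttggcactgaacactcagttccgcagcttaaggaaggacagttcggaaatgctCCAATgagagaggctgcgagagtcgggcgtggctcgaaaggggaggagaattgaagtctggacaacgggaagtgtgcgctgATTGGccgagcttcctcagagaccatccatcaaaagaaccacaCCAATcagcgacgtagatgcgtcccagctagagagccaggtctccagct
It holds 4 CCAAT boxes, a site bound by the factor NF-Y, which 42.8% of tested genes with an entry and 37.4% of promoters in the table hold at least once. Among p53 arrest genes with an entry 14 of 20 hold it (70%). No p53 site was among the motifs searched.

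Genes of dividing crypt cells were lower. Of 30 tested G2/M and mitosis genes 27 were lower in both treated libraries, none was higher and 1 fell past the threshold, with a median of -1.46 (-1.49 in the wild-type pair and -1.38 in the knockout pair). Ccnb2, cyclin B2, a partner of Cdk1 in mitosis (chromosome 9, 70407692 to 70421547), had 234 and 178 normalized reads untreated and 47.2 and 26.9 at 6 h (log2 -2.49 ± 0.56, adjusted p = 0.037). Both genotypes lost most of its reads. Cdk1, the mitotic kinase, had 212 and 140.0 normalized reads untreated and 29.2 and 34.2 at 6 h (log2 -2.41 ± 0.74, adjusted p = 0.12). Top2a, the topoisomerase II isoform of dividing cells and a target of doxorubicin, had 562 and 345 normalized reads untreated and 152 and 147 at 6 h (log2 -1.56 ± 0.53, adjusted p = 0.17). Mki67, the Ki-67 antigen of cycling cells, had 399.5 and 235 normalized reads untreated and 159 and 94.4 at 6 h (adjusted p = 0.28). None of these 3 overlapped between conditions. Of 32 S phase genes 19 were lower in both treated libraries and 4 higher, with a median of -0.71, and 1 fell: E2f2, an activator of S phase genes, had 340.0 and 449 normalized reads untreated and 55.02 and 107 at 6 h (log2 -2.33 ± 0.43, adjusted p = 0.015). Cdca3, which promotes entry into mitosis, had 209 and 238 normalized reads untreated and 42.7 and 43.1 at 6 h (log2 -2.35 ± 0.56, adjusted p = 0.049).

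The Ccnb2 promoter is shown because cyclin B2 was the G2/M gene that passed, at chr9:70421505-70421804 (minus strand, GRCm38.p6). Capitals mark the cell cycle genes homology region TTTGAA and CCAAT boxes.
Ccnb2: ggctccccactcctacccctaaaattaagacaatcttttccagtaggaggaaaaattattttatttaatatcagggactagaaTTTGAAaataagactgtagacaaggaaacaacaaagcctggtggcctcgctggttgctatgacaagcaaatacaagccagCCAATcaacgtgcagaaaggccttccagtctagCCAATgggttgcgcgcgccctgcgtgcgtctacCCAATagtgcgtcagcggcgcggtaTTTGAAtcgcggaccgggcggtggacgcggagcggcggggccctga
It holds 2 TTTGAA matches, at -167 and 4, and 3 CCAAT boxes, at -87, -54 and -21. Of 26 G2/M genes with an entry 18 hold TTTGAA (69.2%) and 24 hold CCAAT (92.3%), against 14.7% and 42.8% of all tested genes with an entry. Both strands were searched, no match overlaps another, and the list was not chosen by sequence.

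Some crypt stem cell genes fell. Of 22 tested 3 fell, none rose, 13 were lower in both treated libraries and the median was -0.91. Olfm4, a secreted protein abundant in crypt base stem cells (chromosome 14, 79984081 to 80023139), had 2565 and 1788 normalized reads untreated and 362 and 182 at 6 h (log2 -3.05 ± 0.63, adjusted p = 0.025). Its values dropped by more than 5-fold in both genotypes. Myb, a transcription factor of crypt progenitors, had 207 and 125 normalized reads untreated and 30.3 and 13.03 at 6 h (log2 -2.95 ± 0.68, adjusted p = 0.044), and Slc12a2, the sodium-potassium-chloride cotransporter of crypt cells, had 725 and 552 normalized reads untreated and 264 and 142 at 6 h (log2 -1.70 ± 0.35, adjusted p = 0.025). Lgr5, the receptor that marks the stem cells themselves, had few reads, at 21.8 and 10.2 normalized reads untreated and 2.25 and 5.70 at 6 h (adjusted p = 0.53). Myc, a Wnt target that drives growth, had overlapping values of 76.3 and 51.9 normalized reads untreated and 69.6 and 58.6 at 6 h. Paneth cells share the crypt base, and 8 of their 11 markers were lower in both treated libraries, with a median of -1.29 and none past the threshold. The Paneth markers summed to 28097 and 22126 normalized reads untreated and 12286 and 8746 at 6 h. The lysozyme gene Lyz1 had 7898 and 4748 normalized reads untreated and 2961 and 2036 at 6 h (adjusted p = 0.21). Goblet cell markers, from secretory cells spread along crypt and villus, had a median of 0.19. The part of a smaller crypt share in the lower stem and cell cycle genes was not tested. With any 1 of the 4 libraries left out, none of the crypt stem cell genes passed.

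Several carriers of the villus brush border rose. Slc13a2, a brush border sodium-coupled carrier of citrate and other dicarboxylates (chromosome 11, 78397087 to 78422217), had 1073 and 247 normalized reads untreated and 12310.0 and 9917 at 6 h (log2 4.42 ± 0.46, adjusted p = 2.4e-04). The treated libraries lay over 9 times above the untreated ones, of which the knockout was the lower. Slc5a12, a sodium-coupled carrier of lactate and other monocarboxylates, had 363 and 48.5 normalized reads untreated and 2567 and 3207 at 6 h (log2 4.42 ± 0.59, adjusted p = 0.0025). Slc23a1, a vitamin C transporter, had 297 and 40.6 normalized reads untreated and 734 and 1359 at 6 h (log2 3.17 ± 0.71, adjusted p = 0.038). In these 3 genes the wild-type change was the smaller one, at 3.52, 2.82 and 1.30 against 5.32, 6.02 and 5.03 in the knockout pair. The test of that difference passed for none of them (adjusted p = 1 for each). These were the 3 risen genes of 17 tested organic anion and acid transporters, of which 10 had a negative change, and the median was -0.08.

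Amino acid and peptide transporters moved more broadly. Of 16 tested 6 rose, none fell, 11 were higher in both treated libraries, and the median was 0.68 (0.41 in the wild-type pair and 1.26 in the knockout pair). Slc6a19, the main brush border carrier of neutral amino acids, had 10532 and 8939.7 normalized reads untreated and 28917 and 26029 at 6 h (log2 1.50 ± 0.19, adjusted p = 0.0017). The change was nearly equal in both genotypes. Slc7a15, an amino acid carrier of the Slc7 family, had 1688 and 769.9 normalized reads untreated and 3241 and 3533 at 6 h (log2 1.57 ± 0.31, adjusted p = 0.022). Slc3a2, the heavy chain of several amino acid exchangers, had 7043 and 4842 normalized reads untreated and 11229 and 13745 at 6 h (log2 1.09 ± 0.22, adjusted p = 0.024). The basolateral exchangers Slc7a7 and Slc7a8 rose by log2 1.10 ± 0.25 and 1.36 ± 0.32, and the peptide carrier Slc15a1 by 1.28 ± 0.30 (adjusted p = 0.0498). Of 26 enterocyte and brush border genes 20 were higher in both treated libraries and 2 lower, with a median of 0.54, and 1 rose: the aminopeptidase Enpep had 10394 and 5489 normalized reads untreated and 18619.9 and 24369.8 at 6 h (log2 1.50 ± 0.31, adjusted p = 0.025). Under quantile normalization the median of the enterocyte list was 0.18. Without the untreated wild-type or knockout library 3 and 0 of the 6 amino acid transporters passed, and without either treated library 1 did. The phosphate carrier Slc20a1, among the largest rises, had 321 and 106 normalized reads untreated and 1326 and 1061 at 6 h (log2 2.68 ± 0.50, adjusted p = 0.016).

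Some genes of fat absorption rose. Of 22 tested fat absorption and lipoprotein genes 3 rose, none fell, and the median was 0.45. In both treated libraries 14 were higher and 2 lower (25.3% and 25.1% of all genes tested). Under quantile normalization 3 still rose and the median of this list was 0.16. Dgat2, which makes triglyceride in its last step (chromosome 7, 99153658 to 99182719), had 6212 and 6988 normalized reads untreated and 43996 and 21628 at 6 h (log2 2.23 ± 0.31, adjusted p = 0.003). The treated wild-type library was about 2 times above the treated knockout. Creb3l3, a transcription factor of intestinal lipid handling, had 9052 and 9049 normalized reads untreated and 19919 and 17773 at 6 h (log2 1.06 ± 0.18, adjusted p = 0.011), and Abca1, which exports cholesterol to lipoproteins, had 96.2 and 22.6 normalized reads untreated and 801 and 606 at 6 h (log2 3.86 ± 0.87, adjusted p = 0.038). Of 24 tested cholesterol synthesis genes none passed, 5 were higher and 7 lower in both treated libraries, and the median was 0.08. Nr1h3, Cyp27a1 and Soat2 are in no list and were picked because they passed, so they say nothing of sterol genes in general. Nr1h3, the sterol sensor LXR alpha, had 792 and 965 normalized reads untreated and 1479 and 1532 at 6 h (log2 0.78 ± 0.17, adjusted p = 0.031). Cyp27a1, which makes 27-hydroxycholesterol, had 1105 and 568 normalized reads untreated and 5197 and 3160.2 at 6 h (log2 2.35 ± 0.39, adjusted p = 0.01), and Soat2, which esterifies cholesterol in enterocytes, had 2293 and 2067 normalized reads untreated and 3470.4 and 3999.5 at 6 h (log2 0.77 ± 0.15, adjusted p = 0.017). The fat tissue markers given above were also higher in both treated libraries, with a median of 3.76, and their part in these genes was not tested. Fads2, a fatty acid desaturase, fell, at 608 and 432 normalized reads untreated and 121 and 107 at 6 h (log2 -2.16 ± 0.44, adjusted p = 0.024), and was the gene that passed of 14 tested for fatty acid synthesis.

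The ATF4 stress list gave 3 calls. Of 17 tested 2 rose and 1 fell, 8 were higher and 2 lower in both treated libraries (25.3% and 25.1% of all genes tested), and the median was 0.33. Trib3, a pseudokinase induced by stress, had 249 and 221 normalized reads untreated and 788 and 974 at 6 h (log2 1.90 ± 0.33, adjusted p = 0.011), and Slc3a2, given above, was the other that rose. Aldh18a1, which starts proline synthesis from glutamate, had 4920.3 and 4175 normalized reads untreated and 938 and 1338 at 6 h (log2 -2.02 ± 0.37, adjusted p = 0.015) and was the one that fell. A pair of genes from no list was named after their values were seen. Glud1, glutamate dehydrogenase, had 2579.6 and 2143 normalized reads untreated and 12216 and 8369 at 6 h (log2 2.10 ± 0.30, adjusted p = 0.0037), and Cps1, which makes carbamoyl phosphate from ammonia, had 6696 and 5844 normalized reads untreated and 2455 and 1138 at 6 h (log2 -1.90 ± 0.31, adjusted p = 0.0093). The former was higher and the latter lower in both treated libraries. Eif4ebp3, an inhibitor of translation initiation, had 15.9 and 2.26 normalized reads untreated and 106 and 43.96 at 6 h (log2 3.22 ± 0.70, adjusted p = 0.033) and was the gene past the threshold among 14 mTORC1 brakes and 4E-BP genes.

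Among hypoxia-responsive genes the direction was split. Vegfa, the angiogenic factor, had 832 and 752 normalized reads untreated and 2099.6 and 1885 at 6 h (log2 1.33 ± 0.28, adjusted p = 0.027), and Pdk1, a mitochondrial kinase that inhibits pyruvate dehydrogenase, had 456 and 513 normalized reads untreated and 157 and 149.8 at 6 h (log2 -1.65 ± 0.24, adjusted p = 0.0037). The other 12 of 14 did not pass, and the median was -0.10. Gpx1, a glutathione peroxidase, had 6636 and 9373 normalized reads untreated and 3103 and 2028 at 6 h (log2 -1.65 ± 0.24, adjusted p = 0.0042), in a list of 21 NRF2 and glutathione genes with a median of -0.37. Of 30 xenobiotic genes 2 rose: Akr1b7, an aldose reductase family member, had 1561 and 1249.7 normalized reads untreated and 5480.2 and 4649.9 at 6 h (log2 1.85 ± 0.37, adjusted p = 0.024), and Cyp4b1, a cytochrome P450, had 2239 and 1385 normalized reads untreated and 4228 and 5510.4 at 6 h (log2 1.45 ± 0.34, adjusted p = 0.045). Slc40a1, ferroportin, the iron exporter of enterocytes, showed one of the largest falls, at 1186 and 5065 normalized reads untreated and 327 and 162 at 6 h (log2 -3.41 ± 0.80, adjusted p = 0.045). Its untreated values differed about 4-fold between the genotypes. Further large rises were Usp35, at log2 3.58 ± 0.61, Aldh1a3, which makes retinoic acid, at 3.26 ± 0.71, Acox2, a peroxisomal oxidase, at 2.81 ± 0.49, and Cox6b2, at 2.80 ± 0.57. Further large falls were Tmem252, at log2 -3.36 ± 0.50, Neu3, a sialidase, at -3.28 ± 0.58, Ypel2 at -2.89 ± 0.44, Fam189a2 at -2.39 ± 0.50 and Csrp2 at -2.26 ± 0.53.

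Glucocorticoid-responsive genes gave 1 call. Of 16 tested Per1 rose, and 9 were higher and 1 lower in both treated libraries (25.3% and 25.1% of all genes tested). The median was 0.52, with 0.93 in the wild-type pair and 0.34 in the knockout pair. Fkbp5, a cochaperone of the glucocorticoid receptor, had 117 and 94.8 normalized reads untreated and 5247 and 315 at 6 h. It changed by log2 5.48 in the wild-type pair and 1.72 in the knockout pair, and it did not pass (log2 3.60 ± 0.88, adjusted p = 0.054). Zbtb16, another receptor target, was at 0 in both untreated libraries and had 214 and 0.814 normalized reads at 6 h, the latter being 1 read (adjusted p = 0.15). The metallothionein Mt1 had 782 and 616 normalized reads untreated and 11729.5 and 8658 at 6 h (log2 3.86 ± 0.95, adjusted p = 0.056), high in both treated libraries. The test of the difference between genotypes passed for none of Fkbp5, Zbtb16 and Mt1 (adjusted p = 1, 1 and 1). The receptor half-site pair ACANNNTGT, searched on both strands, lay in the promoters of 3 of 13 list genes with an entry (23.1%), against 5.06% of tested genes and 6.85% of all promoters.

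Of 4 tested small proline-rich genes, which encode epithelial stress proteins, 3 fell and all 4 were lower in both treated libraries, with a median of -2.30. The 3, Sprr2a1, Sprr2a2 and Sprr2a3, are near-identical copies whose reads may be shared, so they count as uncertain one by one. Sprr2a3 had 2505 and 8426 normalized reads untreated and 696 and 882 at 6 h (log2 -2.55 ± 0.46, adjusted p = 0.015), and the log2 changes of Sprr2a2 and Sprr2a1 were -2.43 ± 0.47 and -2.17 ± 0.43. Pycard (ASC) and Casp1, the adaptor and the protease of the inflammasome, are in no list and were named after their values were seen. Pycard had 1613 and 2025 normalized reads untreated and 591 and 560.1 at 6 h (log2 -1.65 ± 0.25, adjusted p = 0.0059) and Casp1 2526 and 2209 normalized reads untreated and 1165 and 1578 at 6 h (log2 -0.80 ± 0.18, adjusted p = 0.035), both lower in both genotypes. MHC class II genes had a median of 1.59 over 8 tested, 5 of them higher and none lower in both treated libraries, and none past the threshold. Interferon-stimulated genes had 9 of 25 members higher and none lower in both treated libraries, none past the threshold and a median of 0.47. The shares over all genes tested were 25.3% higher and 25.1% lower in both treated libraries. Cd74, the invariant chain of class II, had 3052 and 6515 normalized reads untreated and 8031 and 33847 at 6 h (adjusted p = 0.22), and the knockout was the higher genotype in both conditions. T cell markers had a median of 0.49 and myeloid markers of 0.83, beside them, and the part of these cells in the class II values was not tested. Cytosolic ribosomal protein genes, which follow growth, had 27 of 36 members lower in both treated libraries, none past the threshold, and a median of -0.56 (-0.26 in the wild-type pair and -0.88 in the knockout pair). The 13 stable reference genes had a median of -0.02.

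**Figure D3:**
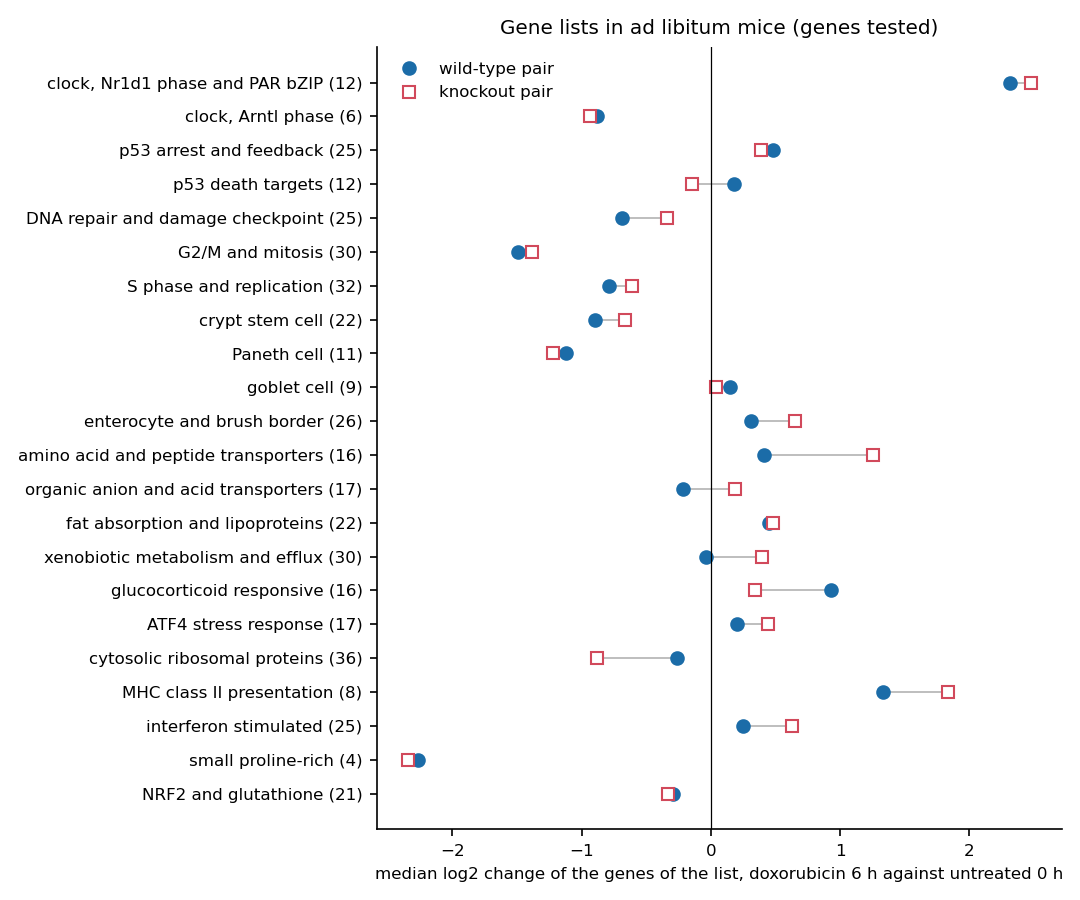
Median log2 change from untreated 0 h to doxorubicin 6 h of the tested genes of 22 lists, in the wild-type pair (filled circles) and the knockout pair (open squares), with the number of genes tested in brackets. The Per and PAR bZIP clock list lies at 2.32 and 2.48 and the G2/M list at -1.49 and -1.38, while the glucocorticoid, amino acid transporter and ribosomal protein lists lie apart between the genotypes.

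Whether the 2 genotypes differed in their 6 h change was tested gene by gene. Adgrd1, an adhesion G protein-coupled receptor (chromosome 5, 129096750 to 129204599), was the 1 gene of 11939 that passed in limma. It had 780.2 and 174 normalized reads untreated and 527 and 1519.9 at 6 h, so it changed by log2 -0.57 in the wild-type pair and 3.12 in the knockout pair, a difference of 3.69 ± 0.51 (adjusted p = 0.048). The spread in this test came from the other conditions, and 266 genes had an unadjusted p under 0.05. edgeR called 0 genes and DESeq2 5. A difference in the response between genotypes for the other genes was not detectable in limma with 1 mouse per genotype and condition.

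The hour label was matched next, against the untreated prefasted mice at 6 h, which had been fasted for 24 h and refed for 6 h. In those mice the label counts hours of refeeding, and in the treated ad libitum mice hours of doxorubicin. The sample titles give no time of day, so the clock genes may not be matched for it. This contrast keeps the treated libraries of the first one, so the 2 are not independent, and it differs in feeding as well as in drug. In it 132 genes passed (1.11%), 84 higher and 48 lower with doxorubicin. The clock list had a median of 0.96 there. Per2 had 328 and 331 normalized reads in the untreated prefasted mice at 6 h, and its log2 change was 0.53 ± 0.34 (adjusted p = 0.42). Tef and Dbp had changes of 1.06 ± 0.39 and 1.82 ± 1.09 (adjusted p = 0.15 and 0.38). Per3 had 104 and 95.9 normalized reads in those mice, well above its 0 h values, and a change of 1.33 ± 0.84 (adjusted p = 0.4). Per1 stood apart from them, at 129 and 140.1 in those mice, with a change of 2.39 ± 0.38 (adjusted p = 0.011).

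Some lists moved closer to 0 or turned against these prefasted mice, and others did not. The G2/M median was 0.18, the S phase median 0.38, the crypt stem cell median -0.21 and the Paneth median 1.60, against -1.46, -0.71, -0.91 and -1.29 with the 0 h controls. The untreated prefasted libraries at 6 h were uneven. The wild type held pancreatic transcripts. The knockout had the lowest Paneth marker level of the 23 libraries, at log2 -2.45 against the mean over libraries (-0.39 in the wild type). It also had the fewest genes with a read, 12357. The part of these traits in the medians was not tested. The medians of the Arntl-phase clock list, of MHC class II and of the fat tissue markers were -0.87, 1.99 and 3.64, against -0.91, 1.59 and 3.76. The Arntl-phase genes that fell against 0 h, Arntl and Nfil3, did not pass against these prefasted mice. Their log2 changes were -1.29 ± 0.44 and -0.97 ± 0.56 (adjusted p = 0.13 and 0.36), smaller than the -2.72 and -2.98 with the 0 h controls. The cyclin gene Ccnb2 had 45.1 and 57.8 normalized reads and Olfm4 471 and 306 in the untreated prefasted mice. Both pairs lie nearer to the treated ad libitum values than to the untreated ones at 0 h. The amino acid transporter median was 0.10 and the fat absorption median 0.04. Dgat2 stood at 37169 and 30630.2 in those mice and Slc13a2 at 3350.0 and 3058, with a change of 1.79 ± 0.46 for Slc13a2 (adjusted p = 0.058). The p53 arrest list had the higher median of 0.97, and Plk2 passed, at 2.46 ± 0.38 (adjusted p = 0.011), as did Phlda3, at 4.83 ± 1.07 (adjusted p = 0.042). Ccng1, Cdkn1a and Mdm2 did not pass, at 0.58 ± 0.15, 0.29 ± 0.19 and 0.14 ± 0.22 (adjusted p = 0.061, 0.42 and 0.77). Their changes with the 0 h controls were larger, at 0.88, 0.43 and 0.43. Feeding history, drug and hour cannot be told apart across these contrasts.

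Some genes passed against both sets of untreated mice, and 3 of them were named after their values were seen. B4galt6, which makes lactosylceramide, had 1584 and 2092 normalized reads untreated and 4322 and 3732 at 6 h (log2 1.14 ± 0.18, adjusted p = 0.0064), and a change of 0.97 ± 0.18 against the prefasted mice (adjusted p = 0.017). Pmp22, a membrane protein best known from myelin, had 2267 and 1822 normalized reads untreated and 11038 and 12482 at 6 h (log2 2.53 ± 0.59, adjusted p = 0.044), and 2.68 ± 0.59 there (adjusted p = 0.042). Ddah1, which breaks down an inhibitor of nitric oxide synthesis, was at 0 in both untreated ad libitum libraries and had 24.7 and 13.03 normalized reads at 6 h (adjusted p = 0.029). The change of these 3 was positive whichever untreated mice were used, though Ddah1 had few reads at 6 h.

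**Figure D4:**
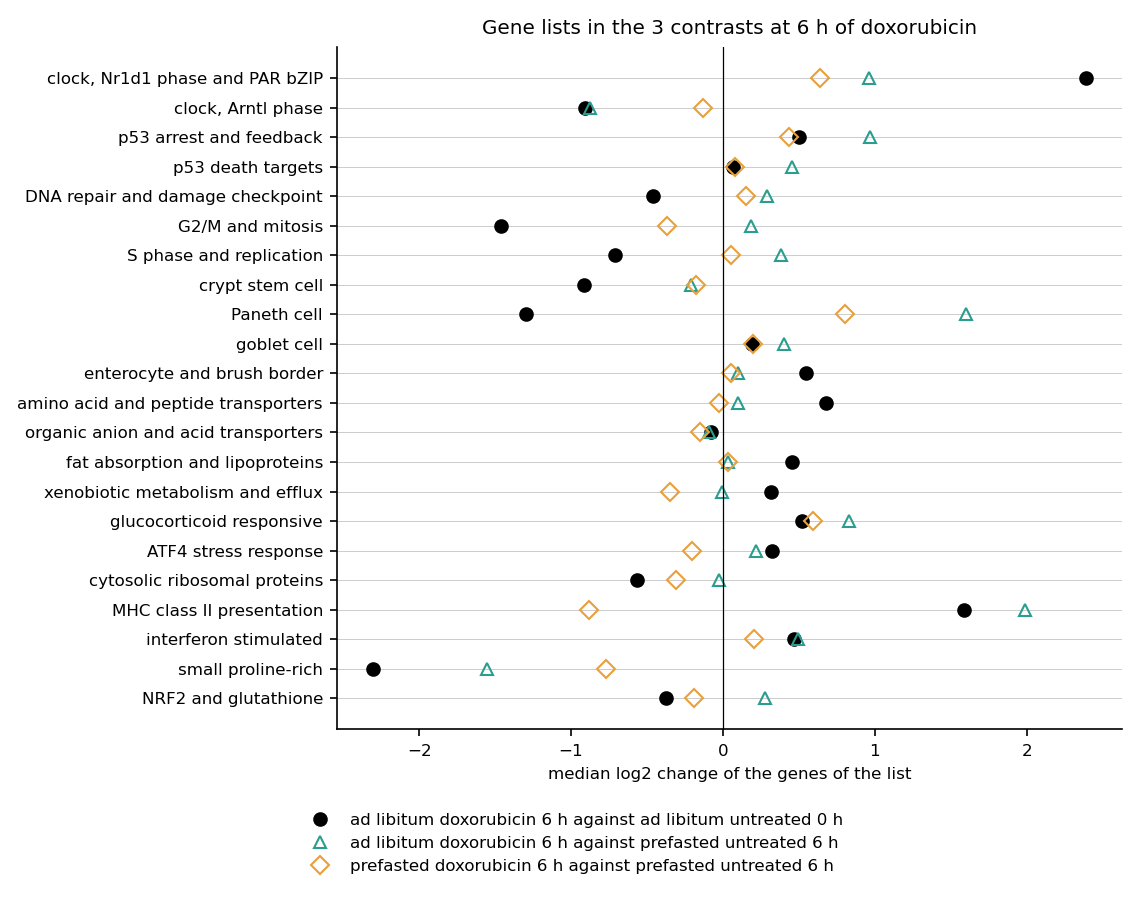
Median log2 change of 22 gene lists in 3 contrasts at 6 h of doxorubicin: against ad libitum untreated 0 h (filled circles), ad libitum doxorubicin against prefasted untreated 6 h (triangles), and prefasted doxorubicin against prefasted untreated 6 h (diamonds). The first 2 contrasts share their treated libraries, and the last 2 their untreated ones. The clock list lies at 2.39, 0.96 and 0.64 and the G2/M list at -1.46, 0.18 and -0.37.

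The prefasted mice gave a drug contrast at 6 h that shares no library with the first one. Its libraries did enter the spread that decided which genes passed in the first contrast, so the shares below are not fully independent of those calls. No gene passed in it (0%), with 1439 genes at an unadjusted p under 0.05, and edgeR called 0 and DESeq2 127. Its wild-type treated library has a title that calls it untreated while its treatment field says doxorubicin, and its wild-type untreated library held pancreatic transcripts. Of the 108 genes that rose in ad libitum mice, 89 had a positive change in prefasted mice (82.41%, against 49.52% of all genes tested) and 53 were higher in both treated libraries (49.07%, against 16.54%). Of the 52 that fell, 38 had a negative change (73.08%, against 50.48%) and 26 were lower in both treated libraries (50%, against 15.83%). The sizes were smaller, with medians of 0.31 and -0.45. Per2 changed by log2 1.03 ± 0.34 there (adjusted p = 0.25), Ccng1 by 0.32 ± 0.15 (adjusted p = 0.41), Plk2 by 2.02 ± 0.38 (adjusted p = 0.063) and Olfm4 by 0.02 ± 0.63 (adjusted p = 0.99). The difference between the ad libitum and prefasted changes was tested gene by gene and passed for none (0%) in limma, with 1002 at an unadjusted p under 0.05, while edgeR called 0 and DESeq2 47. These drug contrasts also differ in their controls, which were at 0 h in ad libitum mice and at 6 h in prefasted mice.

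Values at the other hours place the 6 h libraries in a course, with the untreated libraries as the shared start. Per2 had 207 normalized reads in the wild-type mouse at 2 h, 870.2 and 943 at 12 h, and 367 and 192 at 24 h. Its 6 h values thus lay between those at 2 and 12 h. Fkbp5 had 3353 at 2 h, 5200.2 and 4132 at 12 h and 4892 and 4018 at 24 h. The treated knockout at 6 h, at 315, was the low one among 7 treated ad libitum libraries. Olfm4 went lower still, to 65.7 and 22.4 at 12 h and 96.3 and 26.1 at 24 h. Ccng1 had 1284 and 1137 at 12 h and 1925 and 1701 at 24 h, so it was high at 6 and 24 h and lower between. Arntl was at its lowest at 6 h, with 268 and 231 at 12 h and 326 and 459.7 at 24 h. These later values share the untreated start with the 6 h comparison and are given as values only.

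**Figure D5:**
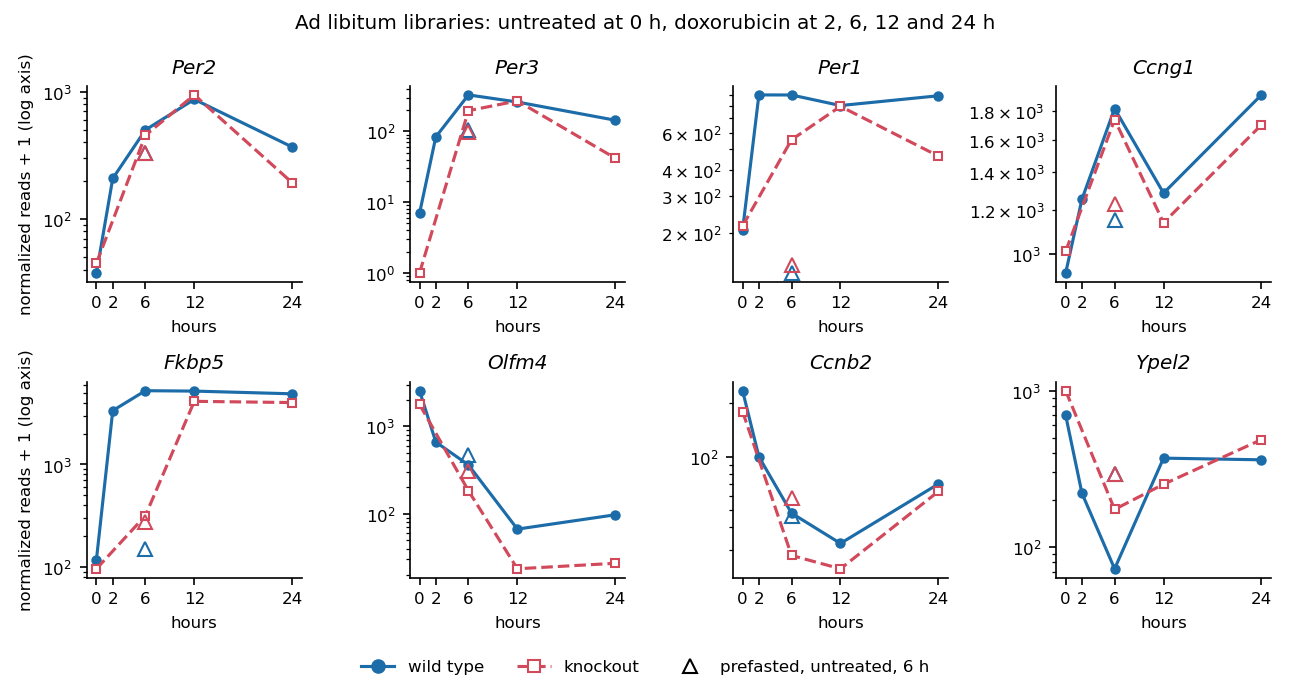
Normalized reads + 1 (log axis) of 8 genes in ad libitum mice, untreated at 0 h and after doxorubicin at 2, 6, 12 and 24 h, wild type as filled circles and knockout as open squares, 1 library per point, with untreated prefasted mice at 6 h as triangles. At 2 h there is a wild-type library only. Untreated prefasted mice lie at 328 and 331 for Per2 and at 129 and 140 for Per1, and Fkbp5 of the treated knockout at 6 h lies at 315.

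The median change differed little with gene length. Over 11801 genes with 1 position in the annotation, the median log2 change in 5 equal bins of genomic span lay between -0.01 and 0.01. Within genotypes it ran from 0.08 in the shortest bin to -0.06 in the longest for the wild-type pair, and from -0.08 to 0.07 for the knockout pair, so the pairs tilted in opposite directions. From the shortest bin to the longest, 12, 23, 25, 30 and 18 genes rose and 11, 6, 9, 12 and 13 fell. No test was made on these counts.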

How the data were processed

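RNA from whole proximal small intestine was poly-A selected and sequenced without strand as paired reads, per the labels' protocols. For these steps the submitters' processing notes list mm10, STAR, DESeq2 and Trim Galore, with no version. The deposited table holds signal values for 16259 genes in 23 libraries. They are read counts that the authors divided by 1 factor per library, and 100% are whole reads to within 0.01. Read assignment and gene filters are not given in the sources used here. Reads of antisense or overlapping genes cannot be told apart.

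Genes averaging 10 normalized reads or more (11939) were tested on log2(value + 1) with limma 3.58.1 (eBayes with a trend, two-sided) in R 4.3.3. The model held 12 conditions and the genotype, in all 23 libraries, and left 10 residual degrees of freedom. Genotype was the pairing term, since each condition had 1 library per genotype. Folds on the log2(value + 1) scale understate changes of low genes. The p-values reflect only the spread between these libraries. Contrasts were doxorubicin 6 h against untreated 0 h ad libitum, the same against prefasted untreated 6 h, the prefasted drug contrast, the difference of the drug contrasts, and the difference between genotypes. Genes named were the 15 top rises and 15 top falls that passed, averaged 50 or more and had the same sign in both genotypes, up to 3 passing members of each list, and a set of markers. Members, lists and tests were chosen with earlier results of these data known. edgeR 4.0.16 and DESeq2 1.42.0 were run on the recovered reads. On simulated data for the first contrast (11872 genes), limma recovered 30% of 100 genes changed 2-fold and 93% of 100 changed 4-fold, with 4 false calls. edgeR recovered 31% and 95% with 4, and DESeq2 35% and 95% with 20. The genes changed averaged 50 or more. Reads were drawn with the spread typical of each gene's level and no effect of genotype or other conditions. These figures need not hold for the real libraries. Alternatives covered pseudocount, filter, normalization, weights, tool, subsets and each library left out. Positions are from GENCODE on mm10 and promoters from RefSeq on GRCm38.p6.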

Additional observations from a re-analysis of the deposited data

Results flagged for a closer look

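Adgrd1 was the gene that passed the test of a difference between genotypes in the 6 h change in limma: 780.2 to 527 normalized reads in the wild-type pair and 174 to 1519.9 in the knockout pair, a difference of log2 3.69 ± 0.51 (limma, adjusted p = 0.048). Each value is 1 mouse, so the spread in this test comes from other conditions. No gene passed with edgeR, with no filter on low values, without the trend or without the libraries with pancreatic transcripts, and Adgrd1 did not pass without those with conflicting titles. The low untreated knockout value comes from the library that lacks Y-linked reads. Its part in the difference was not tested.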

How the results depend on the processing

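The 4 libraries limit every count. For doxorubicin at 6 h against 0 h, the 160 genes became 609 with array weights, 500 with DESeq2, 37 without the trend, 296 without the 4 libraries with conflicting titles, 361 from only the 4 libraries and 443 from only the 9 ad libitum ones, and 5 without the 3 libraries lacking Y-linked reads. Leaving out 1 library gave 6 to 219. No genotype term, that is no replicate block, gave 124, all among the 160. Against prefasted mice at 6 h the 132 became 78 with no filter, 60 with quantile normalization, 0 with array weights (1471 at an unadjusted p under 0.05), 50 with edgeR, 612 with DESeq2, 76 without the trend, 398 without conflicting titles, 46 without the Y-lacking libraries and 662 without the 2 with pancreatic transcripts, and 1 to 710 with 1 library left out (1 without the treated wild type, 4 without the treated knockout, 710 without the prefasted untreated wild type). The prefasted contrast gave 1 with log2(value + 5), 1 with quantile normalization, 127 with DESeq2, 11 without the trend, 1 without conflicting titles, 3 without Y-lacking libraries, 159 without pancreatic ones and 0 to 187 with 1 left out. The difference between feeding arms gave 47 with DESeq2, 1 without the trend, 1 without conflicting titles, 13 without pancreatic libraries and 0 to 17 with 1 left out. The difference between genotypes gave 0 with no filter (527 at an unadjusted p under 0.05), edgeR (274), no trend (284) or no pancreatic libraries (353), 5 with DESeq2, and 0 to 1 with 1 left out. Without conflicting titles it gave 1 gene with a negative difference, so not Adgrd1. The causes were not tested. Leaving out the Y-lacking or pancreatic libraries was chosen after seeing the data. Of the values of genes named here over all alternatives of the first contrast, 1409 kept direction and side of the threshold, 355 no longer passed, 51 newly passed and 5 changed sign, none of them past the threshold in either fit. These were Ddit4, at -0.26 without the treated wild-type library (-0.26 to 0.98 with 1 library left out), Myc, at -0.23 without the untreated knockout and -0.07 without the treated wild type (-0.23 to 0.27) and at -0.21 without the Y-lacking libraries, and Kdm5d, at -0.049 without the last.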

Other observations

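Many other pathways had no gene past the threshold in limma at 6 h. Autophagy and lysosome genes had 7 of 20 members higher in both treated libraries and 1 lower, with a median log2 change of 0.13. Cholesterol synthesis genes had 5 higher and 7 lower of 24 (median 0.08), genes of fat oxidation 3 higher and 7 lower of 23 (-0.20), and sugar handling genes 8 higher and 3 lower of 19 (0.09). Chaperones of the unfolded protein response had 7 higher and 5 lower of 19 (0.03) and heat shock chaperones 2 higher and 6 lower of 14 (-0.31). Genes of ribosome biogenesis had 12 of 23 members lower in both treated libraries and none higher (-0.38), and nuclear oxidative phosphorylation genes 10 of 22 lower and none higher (-0.21). Proteasome subunits had 9 of 18 lower and 1 higher (-0.13). Over all genes tested, 25.3% were higher and 25.1% lower in both treated libraries, with a median of 0.

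Among cell type markers, those of tuft cells had a median of -0.59 (0.11 in the wild-type pair and -0.96 in the knockout pair) and those of smooth muscle -0.69 (0.46 and -1.34). Immediate early genes, which respond within minutes to many stimuli, had 6 of 19 members higher in both treated libraries and 1 lower, and a median of 0.13.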
